A study of Mus musculus with 574 samples.

Results

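The R-spondins and their receptors were taken as 9 genes named by symbol: the secreted ligands Rspo1, Rspo2, Rspo3 and Rspo4, the receptors Lgr4, Lgr5 and Lgr6, and the membrane ubiquitin ligases Znrf3 and Rnf43. All 9 had a row among the 23706 genes measured in pools of 100 cells, and 8 had a row among the 25489 genes measured in single cells, where Rnf43 was not analysed here. R-spondins are secreted proteins that strengthen Wnt signalling without starting it. The ligases ZNRF3 and RNF43 remove Frizzled receptors from the cell surface, and an R-spondin bound to an LGR receptor and a ligase clears the ligase, so that more Frizzled remains. In the embryonic midbrain, Wnt signals from the floor plate take part in patterning and in the production of dopamine neurons, and the transcription factor Lmx1a marks the floor plate cells and neurons of that region.

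The samples were cells of the developing mouse ventral midbrain, all from C57BL/6 embryos heterozygous for an Lmx1a-EGFP reporter, so the GFP negative groups carry the allele too. The pools formed 4 groups of 6, namely E13.5 GFP positive, E13.5 GFP negative, E10.5 GFP positive and E10.5 GFP negative, where E gives the embryonic day. A further 550 libraries were single cells with no GFP class in their labels, of which E10.5 supplied 24.9%, E11.5 supplied 16.4% (90 cells), E12.5 supplied 32.4% and E13.5 supplied 26.4%. All libraries were made with Smart-seq2, and values are RPKM (reads scaled by transcript length and by library size), so levels can be set side by side between genes of different length. The labels name no embryo or litter, so a p-value here weighs a difference against the spread of pools alone, and that spread may be technical. For single cells a stage is 1 sample, and no test was made.

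The reporter and Lmx1a followed the labels in every pool. EGFP ranged from 51.1 to 80.3 RPKM in E13.5 GFP positive pools, against 0 in each E13.5 GFP negative pool, and ranged from 170.4 to 230.7 RPKM in E10.5 GFP positive pools against 0 to 5.82 RPKM in E10.5 GFP negative pools. All 9 floor plate markers listed were above 0 in each group, and their summed level was higher in every GFP positive pool than in any GFP negative pool of its stage. Roof plate and choroid plexus markers were also higher with GFP at E10.5. The 6 listed summed to 167.96 to 373.55 RPKM in E10.5 GFP positive pools, where Folr1 averaged 175.45 RPKM and Gdf7 and Wnt3a were at 0. In E10.5 GFP negative pools they summed to 11.66 to 21.13 RPKM. At E13.5 their sums were 8.44 to 46.4 RPKM in GFP positive and 0.986 to 8.55 RPKM in GFP negative pools, which overlapped. Non-neural markers were high in E10.5 GFP negative pools. All 8 mesenchyme and pericyte markers were above 0 there, with sums of 114.96 to 292.2 RPKM, against 5.55 to 29.7 RPKM in E10.5 GFP positive pools, where Rgs5 was at 0. The summed red blood cell markers ranged from 41.6 to 77713 RPKM in E10.5 GFP negative pools and from 38.8 to 81.6 RPKM in E10.5 GFP positive pools, with none of the 7 genes at 0 in either group. At E13.5 the same sums ranged from 2.27 to 26.9 RPKM in GFP positive pools and from 26 to 14425 RPKM in GFP negative pools. The microglia and macrophage markers summed to 0 to 1.14 RPKM in E10.5 GFP positive pools, where 5 of 8 were at 0, and to 0 to 451.7 RPKM in E10.5 GFP negative pools, where none was. Neuron markers moved with stage and, at E10.5, with GFP class: the 8 listed summed to 3929 to 4382 RPKM in E13.5 GFP positive, 4355 to 5046 RPKM in E13.5 GFP negative, 279 to 469 RPKM in E10.5 GFP positive and 1309 to 2369 RPKM in E10.5 GFP negative pools. The part of these cells in the results was not tested, and some values are also given without such pools. In pools, fewer cells of a type and less RNA per cell cannot be told apart.

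Rspo2 was the R-spondin of the GFP positive cells. The gene lies on chr15:43020794-43170826 (GRCm38, minus strand). At E13.5 it had a lowest, median and highest value of 32.3, 38.5 and 49.5 RPKM in GFP positive pools, against 0, 0.608 and 2.54 RPKM in GFP negative pools. At E10.5 the lowest, median and highest values were 48.5, 64.7 and 72.8 RPKM in GFP positive pools, against 0, 0.0842 and 0.688 RPKM in GFP negative pools. Every GFP positive pool was far above every GFP negative pool at both stages, and only 3 of the 6 E10.5 GFP negative pools had any Rspo2. The difference in log2(RPKM + 1) was 4.52 ± 0.27 at E13.5 (SE, limma adjusted p = 7.72e-12) and 5.76 ± 0.27 at E10.5 (SE, limma adjusted p = 6.53e-14), a scale that understates the change of low genes. Differences below are on the same scale, with SE and with Benjamini-Hochberg adjustment over 15871 genes.

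**Figure D1:**
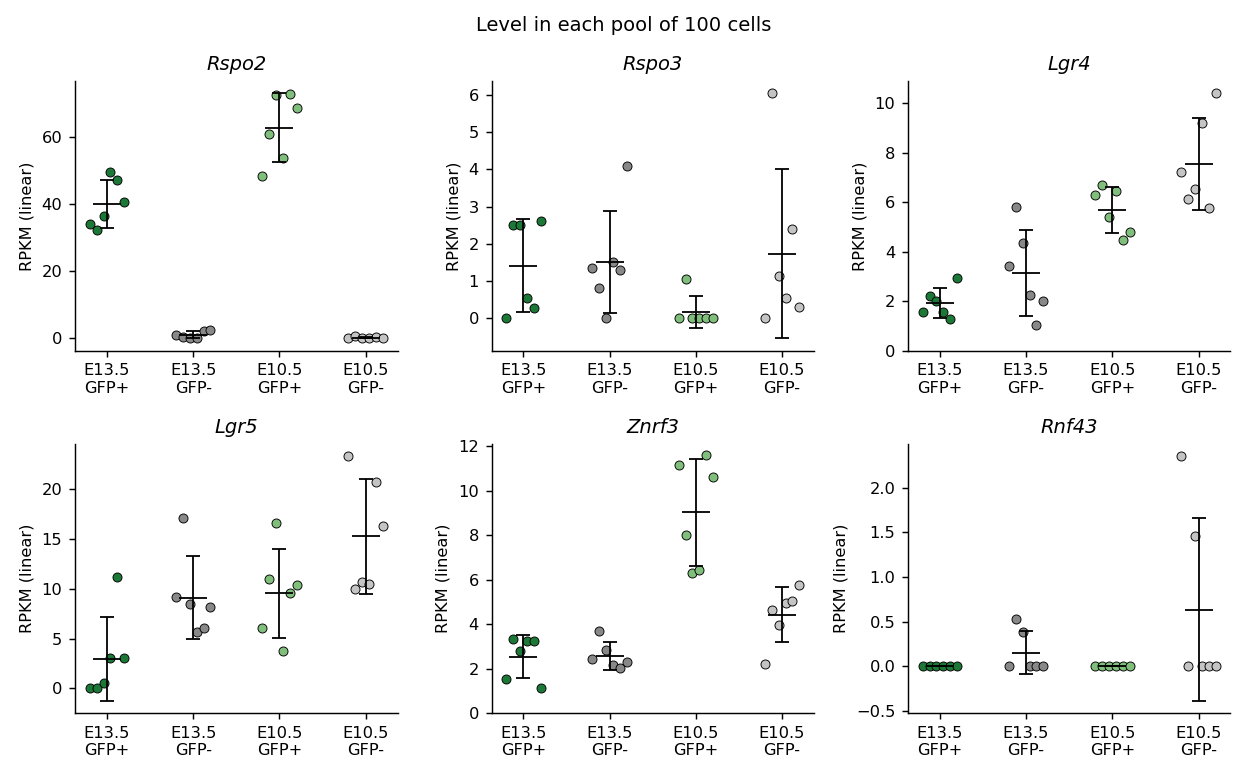
RPKM of Rspo2, Rspo3, Lgr4, Lgr5, Znrf3 and Rnf43 in each pool of 100 cells, on linear axes with their own scale; points are pools, the wide bar is the mean and the error bars are 1 SD (n = 6 pools a group). Rspo2 lies between 32.3 and 72.8 RPKM in all GFP positive pools and at or below 2.54 RPKM in all GFP negative pools.

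Among GFP positive pools, Rspo2 was lower at the later stage. It averaged 40 ± 7.04 RPKM at E13.5 and 62.8 ± 10.2 RPKM at E10.5 (SD, n = 6 each). The ranges touched only at 1 pool: 5 of the 6 E13.5 pools lay below all E10.5 pools. The difference was -0.64 ± 0.27 (adjusted p = 0.0462 by limma). That call ended with quantile normalization (-0.55, adjusted p = 0.0963), with a pseudocount of 0.1 (-0.65, adjusted p = 0.405), with no filter on low values (-0.64, adjusted p = 0.0638), after removal of red blood cell genes (-0.58, adjusted p = 0.0779), and in 10 of the 24 fits that left out 1 pool. Those 10 pools were E10.5 GFP positive pools 2 to 6, E13.5 GFP positive pools 1, 2, 3 and 6, and E13.5 GFP negative pool 1, and over the 24 fits the difference lay between -0.71 and -0.58. In GFP negative pools the stage difference was 0.60 ± 0.27 (adjusted p = 0.0667 by limma), with 3 of the 6 E13.5 pools above all E10.5 pools. It passed without E10.5 GFP negative pool 2 (0.71, adjusted p = 0.0381), and also without E13.5 GFP negative pool 3 or 4 (0.76 and 0.74, adjusted p = 0.0191 and 0.0275 by limma), and with a pseudocount of 0.1 (1.57, adjusted p = 0.0422). The gap between GFP classes was smaller at E13.5 than at E10.5 by 1.24 ± 0.38 on the log2 scale (interaction -1.24, adjusted p = 0.0492 by limma), a call that 18 of the 24 fits without 1 pool lost.

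Rspo3, a ligand of the same family (chr10:29452416-29535867, minus strand), was low in every group. Its lowest, median and highest values at E13.5 were 0, 1.53 and 2.63 RPKM in GFP positive pools and 0, 1.33 and 4.09 RPKM in GFP negative pools. At E10.5 they were 0, 0 and 1.05 RPKM in GFP positive pools and 0, 0.832 and 6.05 RPKM in GFP negative pools. The groups overlapped, and 1 of 6 E10.5 GFP positive pools had any Rspo3 against 5 of 6 E10.5 GFP negative pools. Neither GFP difference passed the test, at -0.08 for E13.5 (95% interval -0.995 to 0.83, adjusted p = 0.949 by limma) and -0.94 for E10.5 (95% interval -1.85 to -0.03, adjusted p = 0.185 by limma). The E13.5 minus E10.5 difference in GFP positive pools was 0.91 (adjusted p = 0.0897 by limma), which passed with a pseudocount of 0.1 (2.55, adjusted p = 0.041) and without E13.5 GFP positive pool 1 (1.12, adjusted p = 0.0409). From E10.5 GFP negative pool 1 to pool 6 the mesenchyme sums were 135.1, 191.1, 216.8, 237.1, 114.96 and 292.2 RPKM. In the same order Rspo3 was at 0, 6.05, 1.13, 0.538, 2.41 and 0.292 RPKM. The part of mesenchyme in the Rspo3 values was not tested.

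The other ligands were almost absent. Rspo1 (chr4:124986430-125009099, plus strand) was above 0 in 2 of 6 E10.5 GFP positive pools and 2 of 6 E10.5 GFP negative pools, at up to 1.29 RPKM, and listed at 0 in all E13.5 pools. Rspo4 (chr2:151842927-151874668, plus strand) was above 0 in 1 of 6 E13.5 GFP positive pools, in no E13.5 GFP negative pool, in no E10.5 GFP positive pool and in 3 of 6 E10.5 GFP negative pools, at up to 2.36 RPKM. Neither passed the filter of 1 RPKM in 6 pools. In a fit with no filter, Rspo4 was called lower at E13.5 in GFP negative pools (-0.67, adjusted p = 0.0418 by limma), where E13.5 pools were all at 0, and no other comparison of Rspo1 or Rspo4 was called. Of the RPKM summed over the R-spondins, Rspo2 made up 96.3% in E13.5 GFP positive pools, 39.3% in E13.5 GFP negative pools, 99.3% in E10.5 GFP positive pools and 6.27% in E10.5 GFP negative pools. The sum itself averaged 41.5 ± 6.47 and 2.49 ± 2.301 RPKM in GFP positive and GFP negative pools of E13.5, and 63.3 ± 10.2 and 2.93 ± 2.26 RPKM in those of E10.5 (SD, n = 6 each).

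Of the receptors, Lgr4 and Lgr5 were present in both GFP classes, and both were lower at E13.5 in GFP positive pools. In the same comparison all 8 neuron markers were higher (median 3.43) and 5 of 9 progenitor markers were lower and 1 higher (median -0.91), and their part in the falls of Lgr4, Lgr5 and Znrf3 was not tested. Lgr4 (chr2:109917647-110014257, plus strand), a receptor found in many tissues, had a lowest, median and highest value of 1.27, 1.80 and 2.94 RPKM in E13.5 GFP positive pools and of 1.03, 2.84 and 5.81 RPKM in E13.5 GFP negative pools. At E10.5 these values were 4.46, 5.86 and 6.69 RPKM in GFP positive pools and 5.78, 6.89 and 10.4 RPKM in GFP negative pools. Every E13.5 GFP positive pool lay below every E10.5 GFP positive pool, and 5 of 6 E13.5 GFP negative pools lay below every E10.5 GFP negative pool. Lgr4 fell by 1.20 ± 0.26 in GFP positive pools (limma adjusted p = 0.000333) and by 1.13 ± 0.26 in GFP negative pools (limma adjusted p = 0.000753). Leaving out the pools that held over 1000 RPKM of red blood cell markers leaves 1 E10.5 and 4 E13.5 GFP negative pools. The stage difference of Lgr4 between these was -1.30. The 1 E10.5 pool gives no spread of its own, so no call is read from that fit. The part of the red blood cell pools in the Lgr4 fall was not tested. The GFP difference of Lgr4 did not pass at E13.5 (-0.41, 95% interval -0.94 to 0.12) or at E10.5 (-0.34, 95% interval -0.87 to 0.19).

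Lgr5 (chr10:115450311-115587780, minus strand), known as a receptor of stem cells in several epithelia, was the only receptor with a called difference between GFP classes. At E13.5 its lowest, median and highest values were 0, 1.79 and 11.1 RPKM in GFP positive pools and 5.69, 8.29 and 17.1 RPKM in GFP negative pools. At E10.5 they were 3.70, 9.94 and 16.6 RPKM in GFP positive pools and 10.01, 13.47 and 23.3 RPKM in GFP negative pools. At E13.5, 5 of the 6 GFP positive pools lay below all GFP negative pools, and pool 5, at 11.1 RPKM, lay among them. Lgr5 was lower in E13.5 GFP positive pools by a log2 difference of -1.87 ± 0.46 (limma adjusted p = 0.0109), while at E10.5 the difference of -0.67 did not pass (95% interval -1.62 to 0.28, adjusted p = 0.40 by limma). The E13.5 call ended when only the 12 pools of that stage entered the model (-1.87, adjusted p = 0.0669 by limma) and without the pools with red blood cell markers (-1.99, adjusted p = 0.0687 by limma). With only the 12 E13.5 pools, calls over all genes were 421 higher and 479 lower, against 542 and 593 with all pools. Whether the 2 GFP differences of Lgr5 differ did not pass the interaction test (-1.20, 95% interval -2.55 to 0.14, adjusted p = 0.342 by limma).

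Over stages, Lgr5 fell by 1.90 ± 0.46 in GFP positive pools (limma adjusted p = 0.00115). Its difference in GFP negative pools was -0.70 (95% interval -1.65 to 0.25, adjusted p = 0.226 by limma). Lgr6 (chr1:134983301-135105276, minus strand), the remaining receptor, was above 0 in 1 pool in each of 3 groups, at up to 0.372 RPKM, did not pass the filter, and was called in no comparison with no filter.

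Znrf3 (chr11:5276324-5444847, minus strand), the ligase that R-spondin clears from the membrane, was called higher with GFP at E10.5 and was not called at E13.5. Its lowest, median and highest values were 1.15, 3.02 and 3.34 RPKM in E13.5 GFP positive pools and 2.05, 2.37 and 3.73 RPKM in E13.5 GFP negative pools. At E10.5 they were 6.33, 9.33 and 11.6 RPKM in GFP positive pools and 2.23, 4.80 and 5.76 RPKM in GFP negative pools. The GFP classes did not overlap at E10.5 and overlapped at E13.5, and every E13.5 GFP positive pool lay below every E10.5 GFP positive pool.

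The GFP difference of Znrf3 was -0.05 ± 0.25 at E13.5 (adjusted p = 0.945 by limma) and 0.89 ± 0.25 at E10.5 (adjusted p = 0.0149 by limma). Without the pools with red blood cell markers, which leaves 1 E10.5 GFP negative pool, the E10.5 difference was 0.72. That single pool gives no spread of its own, so no call is read from the fit. The part of the red blood cell pools in the Znrf3 difference was not tested. With GFP at E10.5 all 8 neuron markers were lower (median -2.32), whereas at E13.5 1 of the 8 was (median -0.20), and their part in the Znrf3 values was not tested. The interaction of Znrf3 did not pass (-0.94, 95% interval -1.65 to -0.22, adjusted p = 0.125 by limma). Znrf3 fell by 1.52 ± 0.25 over stages in GFP positive pools (limma adjusted p = 1.02e-05). In GFP negative pools the difference was -0.58 ± 0.25 (limma adjusted p = 0.0564), which passed without E10.5 GFP negative pool 1 (-0.72, adjusted p = 0.0187), without E13.5 GFP negative pool 2 (-0.66, adjusted p = 0.0385), without E13.5 GFP positive pool 6 (-0.58, adjusted p = 0.0464) and with variances fitted without a trend (-0.58, adjusted p = 0.0284).

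Rnf43 (chr11:87662722-87735539, plus strand), the second ligase, had a value of 0 in each of the 12 GFP positive pools. In GFP negative pools it was above 0 in 2 of 6 at E13.5, at 0.384 and 0.529 RPKM, and in 2 of 6 at E10.5, at 1.45 and 2.35 RPKM. Both E10.5 pools were among the 5 of 6 that held over 1000 RPKM of red blood cell markers, and the other 3 of those 5 had Rnf43 at 0. Rnf43 did not pass the filter, and no comparison of it was called with no filter (for the E10.5 GFP difference, -0.51, adjusted p = 0.22 by limma).

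**Figure D2:**
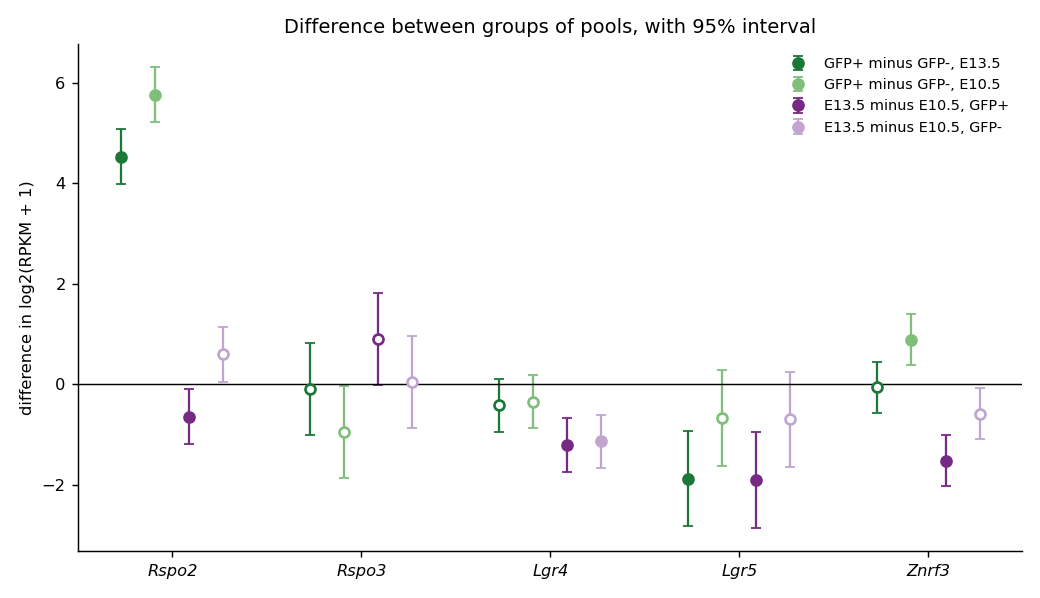
Difference in log2(RPKM + 1) between groups of pools for the 5 genes that passed the filter, with 95% intervals; filled points have an adjusted p under 0.05 and open points do not (limma, 6 pools a group). Rspo2 stands at 4.52 and 5.76 between GFP classes, whereas the stage differences of Lgr4, Lgr5 and Znrf3 in GFP positive pools lie between -1.90 and -1.20.

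Counted over the genes, 5 of the 9 passed the filter and were tested. Between GFP classes at E13.5, 1 of the 5 was higher (Rspo2) and 1 lower (Lgr5), where 3.42% of all genes tested were higher and 3.74% lower. At E10.5, 2 of the 5 were higher (Rspo2 and Znrf3), against 4.51% of all genes, and limma called 0 lower, against 8.64%, with 1 at an unadjusted p under 0.05. Over stages in GFP positive pools, limma called 0 of the 5 higher, also at an unadjusted p under 0.05, against 22.1% of all genes. In the same comparison 4 of the 5 were lower (Rspo2, Lgr4, Lgr5 and Znrf3), against 29.6%. In GFP negative pools limma called 0 of the 5 higher, with 1 at an unadjusted p under 0.05, against 19.7%, and 1 lower (Lgr4), against 26.9%. For the interaction limma called 0 higher, none at an unadjusted p under 0.05 either, against 3.93%, and 1 lower (Rspo2), against 1.9%. The median stage difference of all genes was -0.14 for GFP positive pools, and -0.11 for GFP negative pools. Quantile normalization moved the second of these to -0.01, and the Lgr4 difference there to -1.04, which was still called.

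Other genes of the pathway, from lists that were drawn up with results of these data known, moved with GFP class as follows. Over all genes tested, limma called 3.42% higher and 3.74% lower with GFP at E13.5. At E10.5 it called 4.51% higher and 8.64% lower. These shares stand beside the counts of each list below. Of the 9 Wnt ligands tested, 5 were higher in GFP positive pools at E13.5 and 4 at E10.5, and limma called 0 lower at either stage, with 1 at an unadjusted p under 0.05 at each. Wnt8b, a ligand of the midbrain and forebrain, had a lowest, median and highest value of 25.7, 56.3 and 109.7 RPKM in E13.5 GFP positive pools and 7.25, 8.41 and 18.9 RPKM in E13.5 GFP negative pools. It was higher by 2.31 at E13.5 (limma adjusted p = 2.23e-06) and by 2.63 at E10.5 (limma adjusted p = 1.17e-07). Wnt5a, a ligand mostly linked to signalling without beta-catenin, led at E13.5 at 167.5 ± 59.5 RPKM in GFP positive and 7.70 ± 3.07 RPKM in GFP negative pools (difference 4.28, limma adjusted p = 5.82e-11). Wnt1, the midbrain patterning ligand, led at E10.5 with 33.3 to 57.3 RPKM in GFP positive and 0 to 0.588 RPKM in GFP negative pools (difference 5.41, limma adjusted p = 1.26e-10). Wnt9a, a further ligand, was higher at E10.5, with 1.94 to 11.9 RPKM in GFP positive and 0 to 0.921 RPKM in GFP negative pools (difference 2.44, limma adjusted p = 2.12e-06).

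Of the 12 Frizzled and other Wnt receptors tested, 2 were higher in GFP positive pools at E13.5 and 1 at E10.5. Limma called 0 lower at E13.5, none at an unadjusted p under 0.05 either, and 1 lower at E10.5. Fzd10, a Frizzled, reached 4.36 to 8.22 RPKM in E13.5 GFP positive pools against 0 to 0.494 RPKM in E13.5 GFP negative pools (difference 2.73, limma adjusted p = 7.71e-09). Ror2, a receptor of Wnt5a, was lower at E10.5, with 0.207 to 1.91 RPKM in GFP positive and 1.13 to 7.59 RPKM in GFP negative pools (difference -1.85, limma adjusted p = 0.00114), beside the mesenchyme sums given above.

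Of the 13 genes of the beta-catenin pathway core, limma called 0 higher and 2 lower at E13.5, with 1 higher at an unadjusted p under 0.05, and 1 higher and 0 lower at E10.5, with 3 lower at an unadjusted p under 0.05. Both genes that were lower at E13.5 encode nuclear partners of beta-catenin. Tcf7l2 was at 17.6 to 52.9 RPKM in E13.5 GFP positive pools and 401.1 to 1214 RPKM in E13.5 GFP negative pools (difference -4.35, limma adjusted p = 7.72e-12). Lef1 was at 2.66 to 8.76 RPKM in E13.5 GFP positive and 7.13 to 17.3 RPKM in E13.5 GFP negative pools, which overlapped (difference -0.94, limma adjusted p = 0.0182). Of 11 feedback targets of the pathway, 3 were higher and 0 lower at E13.5 by limma, with 1 lower at an unadjusted p under 0.05, and 5 were higher and 3 lower at E10.5. Ccnd1, a cell cycle gene of that list, was lower at E10.5, with 11 to 31.8 RPKM in GFP positive and 25.4 to 87 RPKM in GFP negative pools (difference -1.15, limma adjusted p = 0.0126). Over stages, 7 of the 11 targets fell in GFP positive pools, against 29.6% of all genes tested. In GFP negative pools 9 of the 11 fell, against 26.9%. Limma called none of the targets higher in either class, at an unadjusted p under 0.05 too, against 22.1% and 19.7% of all genes. The median difference of the targets was -1.63 for GFP positive pools, against -1.34 for GFP negative pools. All 8 neuron markers were higher at E13.5 in both classes (medians 3.43 for GFP positive and 1.28 for GFP negative pools), and 5 and 7 of 9 progenitor markers were lower. Their part in the fall of the targets was not tested.

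Likeness was described for the 2 genes of the family that averaged at least 10 RPKM in some group, by Pearson's r of log2(RPKM + 1) over the 24 pools. The pools fall into 4 groups that share stage and GFP class, so r is a description and carries no test. The genes most like Rspo2 were Lmx1a (r = 0.967), the axon guidance gene Slit2 (0.936), the transcription factor gene Lmx1b (0.93), Wnt8b (0.915) and Mboat1 (0.913). Those most like Lgr5 were the transcription factor gene Sim1 (0.829), Wbp5 (0.82), Jagn1 (0.815), the mitochondrial carrier gene Slc25a5 (0.81) and the zinc transporter gene Slc30a5 (0.802). Lmx1a averaged 56.6 RPKM in E13.5 GFP positive pools, 2.63 in E13.5 GFP negative, 72.1 in E10.5 GFP positive and 1.55 in E10.5 GFP negative pools.

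In single cells a gene was taken as present from 10 RPKM upward, and each share is given with its exact 95% Clopper-Pearson interval, which covers counting error only. Where no cell had a gene, the limit given is instead the share that 3 cells would make. The E12.5 cells carry titles in 2 series, C and F, whose meaning the labels do not give; Rspo2 was present in 11.1% of the C cells and 13.9% of the F cells. The depth of the cells is unknown, and the median number of genes at 1 RPKM or more was 5748 for E10.5, 3567 for E11.5, 4266 for E12.5 and 4287 for E13.5. Rspo2 was present in 50 cells at E10.5 (36.5%, 28.4 to 45.1%), in 14 at E11.5 (15.6%, 8.77 to 24.7%), in 23 at E12.5 (12.9%, 8.37 to 18.8%) and in 27 at E13.5 (18.6%, 12.6 to 25.9%). The E10.5 interval lies above those of the 3 later stages, which overlap each other. The stages also differed in makeup. Lmx1a was present in 71.5% of E10.5, 42.2% of E11.5, 50.6% of E12.5 and 50.3% of E13.5 cells. For EGFP these shares were 75.2%, 30%, 28.1% and 26.9%. The part of this makeup in the stage shares of Rspo2 and of the other genes was not tested. Among cells with at least 4000 genes the shares were 42.1% for E10.5, 21.6% for E11.5, 15% for E12.5 and 20.2% for E13.5, and there the E10.5 and E11.5 intervals overlapped. With 30 RPKM as the limit, the Rspo2 share at E10.5 was 29.2% (21.8 to 37.6%), an interval that overlapped those of E11.5 and E13.5. Where Rspo2 was present, its median level was 77.9 RPKM for E10.5, 150.4 for E11.5, 125.7 for E12.5 and 100.4 for E13.5.

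**Figure D3:**
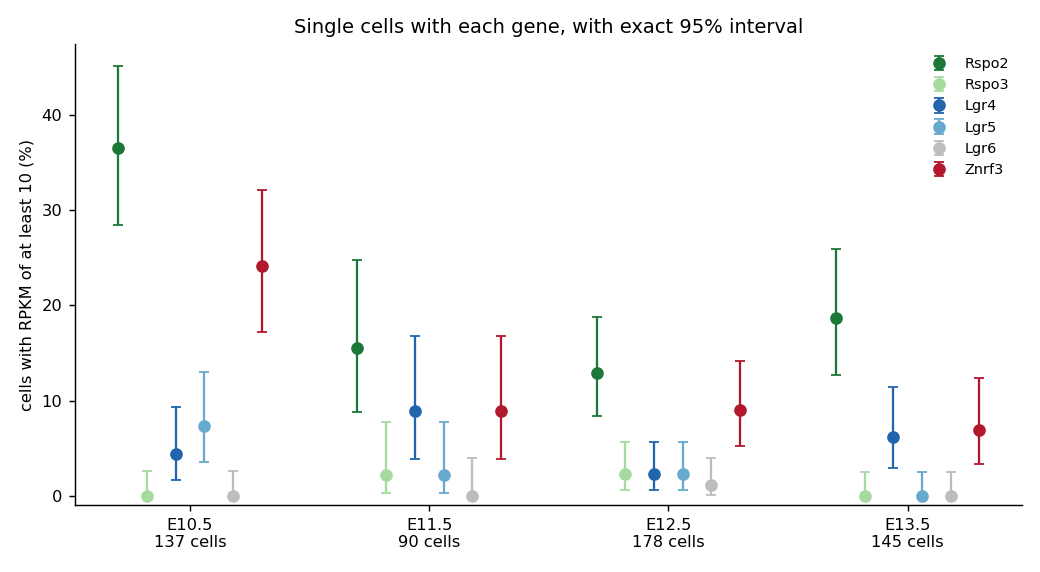
Share of single cells with each gene at an RPKM of at least 10, by stage, with exact 95% intervals (each stage is 1 sample). Rspo2 at 36.5% and Znrf3 at 24.1% are the highest shares, both at E10.5.

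The other ligands were rare in cells too. Rspo3 was present in 2 cells at E11.5 and 4 at E12.5, and in no cell of E10.5 or E13.5, which allows shares of up to 2.19% and 2.07%. Of those 6 cells, 2 also had Rspo2. Rspo1 and Rspo4 were present in 0 of the 550 cells, which allows a share of up to 0.545%. Cells with at least 1 R-spondin were therefore nearly the Rspo2 cells, at 36.5%, 17.8%, 14% and 18.6% from E10.5 to E13.5.

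Lgr4 was present in 6 cells of E10.5 (4.38%), 8 of E11.5 (8.89%), 4 of E12.5 (2.25%) and 9 of E13.5 (6.21%), with overlapping intervals; at E12.5 all 4 were F cells, and 0 of 63 C cells had it. Lgr5 was present in 10 cells of E10.5 (7.30%, 3.56 to 13%), 2 of E11.5 (2.22%), 4 of E12.5 (2.25%) and 0 of E13.5, which allows up to 2.07%. All E13.5 GFP negative pools had Lgr5, at 5.69 to 17.1 RPKM, while the E13.5 single cells averaged 0.034 RPKM. The cause of that gap was not tested. Lgr6 was present in 2 cells at E12.5 and in no cell of the other stages. Of the 550 cells, 27 had Lgr4 and 16 had Lgr5, and no cell had both. Genes this rare would share few cells in any case, and their overlap was not tested.

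Znrf3 was present in 33 cells at E10.5 (24.1%, 17.2 to 32.1%), 8 at E11.5 (8.89%, 3.92 to 16.8%), 16 at E12.5 (8.99%, 5.23 to 14.2%) and 10 at E13.5 (6.90%, 3.36 to 12.3%). The E10.5 interval lies above the other 3. Many Znrf3 cells sat near the limit at E10.5, where the median of the cells with Znrf3 was 15.9 RPKM, and at a limit of 30 RPKM the E10.5 share was 6.57%, with the later shares at 3.33%, 5.06% and 4.83%. At that limit 9, 3, 9 and 7 cells had Znrf3 from E10.5 to E13.5, and the intervals overlap. No order of stages is read from so few cells. Among cells with at least 4000 genes the Znrf3 shares were 28% for E10.5, 18.9% for E11.5, 14% for E12.5 and 8.33% for E13.5, where the E10.5 interval overlapped those of E11.5 and E12.5.

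Rspo2 cells were mostly Lmx1a cells. Of the cells with Rspo2, Lmx1a was present in 44 of 50 at E10.5 (88%, 75.7 to 95.5%), 13 of 14 at E11.5 (92.9%, 66.1 to 99.8%), 20 of 23 at E12.5 (87%, 66.4 to 97.2%) and 22 of 27 at E13.5 (81.5%, 61.9 to 93.7%). Of the cells without Rspo2, it was present in 62.1%, 32.9%, 45.2% and 43.2% over the same stages. Seen the other way, Rspo2 was present in 99 of 299 cells with Lmx1a (33.1%, 27.8 to 38.8%) and 15 of 251 cells without it (5.98%, 3.38 to 9.67%). At each of the 4 stages the share was higher in cells with Lmx1a, and the 2 intervals overlapped at no stage. These cells had a median of 4591 genes with Lmx1a and 4045 without it. By the reporter, Rspo2 was present in 82 of 219 cells with EGFP (37.4%) and 32 of 331 without it (9.67%).

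**Figure D4:**
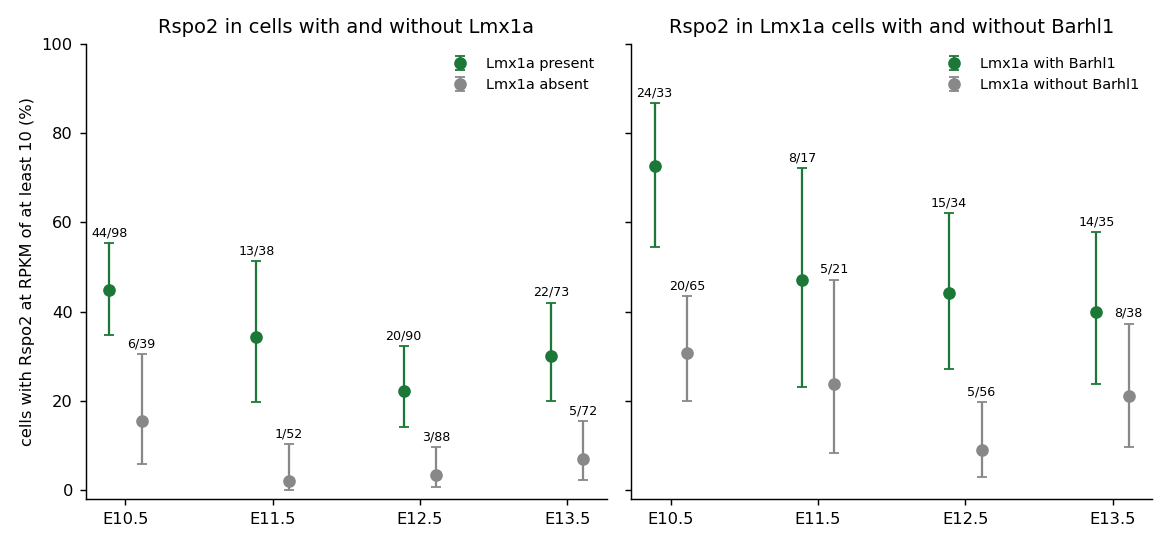
Share of single cells with Rspo2 at an RPKM of at least 10, by stage, in cells with and without Lmx1a (left) and in Lmx1a cells with and without Barhl1 (right); bars are exact 95% intervals and the fractions are cells. At E10.5 the share is 72.7% in Lmx1a cells with Barhl1 and 30.8% in Lmx1a cells without it.

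Among Lmx1a cells, Rspo2 was the more frequent in those with Barhl1, a homeobox gene of the subthalamic lineage. The split by Barhl1 follows an earlier choice made after these data had been seen, and the median number of genes was 4410 in Lmx1a cells with Barhl1 and 4637 in those without it. It was present in 24 of 33 Lmx1a cells with Barhl1 and 20 of 65 without it at E10.5 (72.7%, 54.5 to 86.7%, and 30.8%, 19.9 to 43.4%). At E12.5 it was present in 15 of 34 with Barhl1 and 5 of 56 without it (44.1%, 27.2 to 62.1%, and 8.93%, 2.96 to 19.6%). The intervals did not overlap at these stages. At E11.5 the shares were 8 of 17 with Barhl1 and 5 of 21 without it, and at E13.5 14 of 35 and 8 of 38, with overlapping intervals. Over all stages, and with or without Lmx1a, Rspo2 was present in 3 of 43 cells with both Th and Nr4a2, genes of dopamine neurons (6.98%, 1.46 to 19.1%). That share covers other cells and stages than the Barhl1 shares and is not compared with them.

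Rspo2 was found in progenitors and in neurons. It was present in 40 of 78 cells with Sox2 and no Stmn2, a progenitor pattern (51.3%, 39.7 to 62.8%), and in 37 of 311 cells with Stmn2 and no Sox2, a neuronal pattern (11.9%, 8.52 to 16%). The progenitor-pattern cells had the more genes, with a median of 5833 against 4193, and 53 of the 78 were E10.5 cells. Within E10.5, Rspo2 was present in 29 of 53 progenitor-pattern cells (54.7%, 40.5 to 68.4%) and in 0 of 8 neuronal-pattern cells, which allows up to 37.5%. Within Lmx1a cells of the neuronal pattern, Rspo2 was present in 7 of 24 at E11.5, 11 of 61 at E12.5 and 16 of 60 at E13.5 (29.2%, 18% and 26.7%). By the proliferation gene Mki67, Rspo2 was present in 29 of 69 E10.5 cells with it and 21 of 68 E10.5 cells without it (42%, 30.2 to 54.5%, and 30.9%, 20.2 to 43.3%), intervals that overlap.

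Lgr5 cells were proliferating cells for the most part. Of the 16 cells with Lgr5, 14 had Mki67 (87.5%, 61.7 to 98.4%), 8 had Sox2, 8 had Lmx1a, and none had Stmn2 or Th. Lgr5 was present in 0 of 311 cells of the neuronal pattern, which allows up to 0.965%, and in 8 of 78 cells of the progenitor pattern (10.3%, 4.53 to 19.2%). Most progenitor-pattern cells were E10.5 cells, and most neuronal-pattern cells came from later stages. The part of stage in these Lgr5 shares was not tested. The cells with Lgr5 had a median of 5868.5 genes, and those without it 4381.5. Lgr4 did not follow these patterns: it was present in 4 of 78 progenitor-pattern cells (5.13%, 1.41 to 12.6%) and 13 of 311 neuronal-pattern cells (4.18%, 2.24 to 7.04%), and in 13 of 299 cells with Lmx1a and 14 of 251 without it.

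Znrf3 was present in 23 of 78 progenitor-pattern cells (29.5%, 19.7 to 40.9%) and 14 of 311 neuronal-pattern cells (4.50%, 2.48 to 7.44%). As given above, the progenitor-pattern cells were mostly E10.5 cells and had the more genes, whereas most neuronal-pattern cells came from later stages. The part of stage and of gene number in this Znrf3 difference was not tested. It was present in 48 of 299 cells with Lmx1a (16.1%, 12.1 to 20.7%) and 19 of 251 without it (7.57%, 4.62 to 11.6%). Within single stages those 2 intervals overlapped, at 27 of 98 and 6 of 39 cells at E10.5 and at 8 of 73 and 2 of 72 cells at E13.5.

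Few cells had both Rspo2 and an LGR receptor, but the receptors were rare in any case, and their overlap with Rspo2 was not tested. Seen from the receptors, Rspo2 was present in 7 of 27 cells with Lgr4, 7 of 16 with Lgr5 and 0 of 2 with Lgr6. Of the cells with Rspo2, 7 had Lgr4, 7 had Lgr5, and 22 had Znrf3 (19.3%, 12.51 to 27.7%). An LGR receptor was present in 14 of the cells with Rspo2 (12.3%, 6.88 to 19.7%) and 31 of the 436 cells without it (7.11%, 4.88 to 9.94%), intervals that overlap. Of the 67 cells with Znrf3, 8 had an LGR receptor (11.9%, 5.30 to 22.2%), and 37 of the 483 without Znrf3 had one (7.66%, 5.45 to 10.4%). None of the 8 genes was present in 43.1% of cells for E10.5, 67.8% for E11.5, 74.7% for E12.5 and 74.5% for E13.5.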

How the data were processed

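The authors deposited RPKM values for the pools and log2(RPKM + 0.001) values for the single cells, per the file headers and the values themselves; no raw counts were used, and the cell values were turned back into RPKM. Reads were aligned with STAR 2.3.0 to mm10, per the submitters' processing notes. Whether the counting used strand, and how RPKM was computed, is not given in the sources used here. Low RPKM values were not whole multiples of a read, so the depth of each library is unknown and no counting floor was set for pools. Pools were compared with limma 3.58.1 in R 4.3.3 on log2(RPKM + 1), with 1 mean for each of the 4 groups, moderated variances with a trend and Benjamini-Hochberg adjustment over the 15871 genes that reached 1 RPKM in 6 or more pools; a call is an adjusted p under 0.05. The fit was checked on simulated data. Shares of cells and exact intervals were computed in Python 3.11.15 with SciPy 1.17.1. Coordinates are from GENCODE vM21 (GRCm38). The genes, the lists and the tests were chosen with earlier results of these data known. Besides the 9 genes, the text names, for each GFP comparison, up to 3 called pathway genes in each direction with the largest difference and a mean of at least 5 RPKM in the higher group, and the 5 genes most correlated with each member that averages 10 RPKM in a group; at either stage only 2 genes met the rule among those that were lower. Of the listed pathway genes, Wnt2, Wnt6 and Wnt8a were not analysed here in pools.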

Additional observations from a re-analysis of the deposited data

Results flagged for a closer look

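The GFP difference of Rspo2 was smaller at E13.5 than at E10.5 by the interaction test (-1.24 on the log2 scale, limma adjusted p = 0.0492). The call was lost in 18 of the 24 fits without 1 pool. It was also lost with a pseudocount of 0.1, no filter, quantile normalization or red blood cell genes removed. The value ran from -2.22 with a pseudocount of 0.1 to -0.78 with a pseudocount of 5.

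Of 29 sets of 6 pools with any signal, 10 had 1 pool far from the other 5, and every one was a high pool. Chance alone would mark about 1 set in 20, but 5 of the 10 sets had a single pool above 0, which stands apart by construction. For Lgr5 these were E13.5 GFP positive pool 5, at 11.1 RPKM, and E13.5 GFP negative pool 2, at 17.1 RPKM. For Rspo3 they were E10.5 GFP positive pool 2, at 1.05 RPKM and the only one of its group above 0, and E13.5 GFP negative pool 6, at 4.09 RPKM. Rspo2 had 0.688 RPKM in E10.5 GFP negative pool 2. Rspo1 had 0.793 RPKM in E10.5 GFP negative pool 4, with 1 other pool of that set above 0. Each of the rest was the only pool of its set above 0: Rspo4 at 0.68 RPKM in E13.5 GFP positive pool 2, and Lgr6 at 0.275 RPKM in E13.5 GFP positive pool 6, 0.372 RPKM in E13.5 GFP negative pool 5 and 0.136 RPKM in E10.5 GFP positive pool 4.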

How the results depend on the processing

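Each result was recomputed under other pseudocounts, filters, scalings and variance settings, without each of the 24 pools, and, as settings chosen after seeing the data, with red blood cell genes removed and without the 7 GFP negative pools over 1000 RPKM of red blood cell markers. The Rspo2 differences between GFP classes kept their direction throughout, between 2.92 and 6.02 at E13.5 and between 3.70 and 8.25 at E10.5. They kept their call in every fit with more than 1 pool in each group compared. Without the red blood cell pools 1 E10.5 GFP negative pool remained, so counts of called genes that use that group are not given for that setting. The number of genes of the family that were lower with GFP at E13.5 was 0, against 1, without the red blood cell pools. It was also 0 with only the pools of that stage. Over stages in GFP positive pools, 1 was higher with a pseudocount of 0.1, and 0 to 1 without single pools, against 0. In GFP negative pools 1 was higher with that pseudocount and 0 to 1 without single pools, against 0. The number lower there was 2 with no filter (Lgr4 and Rspo4) and without a variance trend, and 1 to 2 without single pools, against 1. For the interaction, the number lower was 0 with a pseudocount of 0.1, no filter, quantile normalization or red blood cell genes removed, against 1. It was 0 to 1 without single pools. Among those fits, the Rspo2 call stayed without E10.5 GFP positive pool 1, E10.5 GFP negative pools 2 and 5, and E13.5 GFP negative pools 2, 3 and 4.

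Signs changed only for differences that no setting called. The Rspo3 GFP difference at E13.5 ranged from -0.32 to 0.15 without single pools, and its stage difference in GFP negative pools from -0.18 to 0.39, with -0.0151 at a pseudocount of 5. The Lgr4 interaction ranged from -0.25 to 0.0944 without single pools, with 0.0152 at a pseudocount of 5 and 0.10 without the red blood cell pools. The Znrf3 GFP difference at E13.5 ranged from -0.12 to 0.0834 without single pools. Of the recomputed shares of cells, 11 left the interval of the value reported, 5 of them for Znrf3 and none for cells with at least 1 R-spondin; with 30 RPKM as the limit for both genes, the share of Rspo2 cells with Lmx1a was 75% for E10.5 cells and 58.3% for those of E13.5. The cause of these changes was not tested. No paired analysis was possible because the labels give the pools no replicate numbers shared between groups.

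Library depth is unknown, and 1 sample of cells per stage, absent embryo labels and 6 pools a group limit every comparison.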
